A study of Mus musculus with 12 samples.

Results

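The genes described here encode transcription factors linked to T cell exhaustion and to signalling from the T cell receptor (TCR): Tox, Tox2, Nr4a1, Nr4a2, Nr4a3, Nfatc1, Nfatc2, and Irf4. They were chosen by name, and all 8 were found among the 25078 genes of the count table. They were measured by RNA-Seq in donor T cells sorted from the liver on day 6 after allogeneic hematopoietic cell transplantation (HCT). Tox was higher in STAT3-/- and in STAT3-/-PD-1-/- than in WT CD4+ T cells, and Tox2 was lower in STAT3-/-PD-1-/- than in WT cells of both subsets. Nfatc1 and Nfatc2 were lower in STAT3-/-PD-1-/- CD8+ T cells than in either other genotype. Each of these differences failed the test when certain single libraries were left out. Those of Tox in STAT3-/- cells and of Nfatc1 against WT also failed in some other settings. Nr4a1, Nr4a2, Nr4a3, and Irf4 showed no genotype difference that passed the test unless the replicate number was fitted as well, when Irf4 passed in CD8+ T cells. Each of these genes was higher in replicate 1 than in replicate 2 of every group.

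Recipients were lethally irradiated BALB/c mice given T cell-depleted bone marrow from WT C57BL/6 mice together with T cells from 1 of 3 kinds of C57BL/6 donors. The donors were WT mice, mice with floxed Stat3 alleles and CD4-Cre (STAT3-/-), or mice that carried the same alleles and also lacked PD-1 in every cell (STAT3-/-PD-1-/-). CD4-Cre is active from the stage of thymic development at which both coreceptors are expressed, so Stat3 was deleted in CD4+ and CD8+ T cells alike, whereas the host and the marrow kept their own Stat3 and PD-1. Donor CD4+ and CD8+ T cells of each genotype gave 2 libraries per group and 12 in all, and each library came from the pooled liver lymphocytes of 3 recipients. No untransplanted or resting T cells were analysed here. Totals ran from 21676125 to 24551477 counts per library, and no gene of the 8 had fewer than 132 counts in any library.

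In T cells, engagement of the TCR releases calcium, which activates the phosphatase calcineurin and lets NFAT proteins enter the nucleus. NFAT acts with AP-1 on cytokine genes, and NFAT without AP-1 drives genes of the exhaustion program, among them those of the NR4A nuclear receptors and the HMG-box proteins TOX and TOX2. NR4A genes and Irf4 are induced by TCR signals within a short time, Irf4 in proportion to their strength, and TOX maintains exhausted T cells through chromatin remodelling.

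The promoters of the 3 NR4A genes share a feature that the choice of genes did not use. In RefSeq (GRCm38.p6), windows of the 250 bases before a transcript start were found for 6 of the 8 genes. The windows of the NR4A genes are shown because each was higher in replicate 1 than in replicate 2 of every group. That of Irf4 is shown beside them because it shared this difference. Capitals mark the half-site of the cAMP response element, which is bound by CREB and ATF proteins and was searched as TGACG on both strands. The windows, 5′ to 3′ on the gene's strand, lie at chr15:101266596-101266845 (Nr4a1, plus strand), chr2:57124004-57124253 (Nr4a2, minus strand), chr4:48045055-48045304 (Nr4a3, plus strand), and chr13:30748983-30749232 (Irf4, plus strand).
Nr4a1: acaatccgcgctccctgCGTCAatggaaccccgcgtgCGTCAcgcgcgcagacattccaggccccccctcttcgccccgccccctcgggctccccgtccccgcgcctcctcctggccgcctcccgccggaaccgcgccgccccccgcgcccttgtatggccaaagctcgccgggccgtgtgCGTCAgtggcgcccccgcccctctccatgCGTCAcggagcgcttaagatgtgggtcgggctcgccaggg
Nr4a2: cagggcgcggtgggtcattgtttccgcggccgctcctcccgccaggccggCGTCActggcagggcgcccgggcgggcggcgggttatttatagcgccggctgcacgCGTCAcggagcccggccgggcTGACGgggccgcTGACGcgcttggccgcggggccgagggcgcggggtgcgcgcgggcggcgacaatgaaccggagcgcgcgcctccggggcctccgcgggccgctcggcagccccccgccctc
Nr4a3: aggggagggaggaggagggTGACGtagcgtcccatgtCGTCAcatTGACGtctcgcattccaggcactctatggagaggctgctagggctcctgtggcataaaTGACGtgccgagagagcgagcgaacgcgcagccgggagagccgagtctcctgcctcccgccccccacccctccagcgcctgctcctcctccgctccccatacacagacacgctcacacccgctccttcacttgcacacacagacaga
Irf4: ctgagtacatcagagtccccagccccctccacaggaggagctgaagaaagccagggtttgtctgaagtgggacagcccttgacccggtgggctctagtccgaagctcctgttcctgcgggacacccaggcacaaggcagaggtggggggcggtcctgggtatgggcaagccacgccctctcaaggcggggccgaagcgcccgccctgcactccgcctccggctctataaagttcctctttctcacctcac

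Each NR4A window held 4 half-sites. Their first letters lay 233, 213, 69, and 40 bases before the start of Nr4a1, 200, 144, 123, and 111 bases before that of Nr4a2, and 231, 213, 205, and 147 bases before that of Nr4a3. The Irf4 window held none, nor did those of Nfatc2. A window of Tox2 held 1 half-site, 157 bases before its start. Of 32851 windows of this length in the table used, 17.8% held at least 1 half-site and 45 windows (0.137%) held 4 or more. The full element TGACGTCA, which contains the half-site on both strands, was in 1.55% of all windows. It was in none of the 11 windows found for 6 of the 8 genes. Tox and Nfatc1 had no window and were not searched. Nor did those windows hold the AP-1 motif TGANTCA (6.75% of all windows), the NR4A monomer site AAAGGTCA (1.34%), the STAT motif TTCNNNGAA (7.02%), or the interferon-response-like motif GAAANNGAA (7.13%). The NFAT core GGAAA, present in 55.6% of all windows, was found before Nfatc2, Nr4a2, and Tox2. These matches describe letters and were not measured as binding.

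The targeted genes and cell markers were examined before the 8 genes. Stat3 had 369 and 467 TMM-normalized CPM, that is, counts scaled to library size, in the WT CD4+ libraries, 140 and 164 in STAT3-/-, and 157 and 219 in STAT3-/-PD-1-/-. The CD8+ values were 397 and 384, 149 and 136, and 154 and 235 CPM in the same order, so both STAT3-deficient genotypes lay below WT in each subset with reads remaining on the gene. Pdcd1, which encodes PD-1, had 247 and 235 CPM in WT, 261 and 323 in STAT3-/-, and 55.1 and 26.0 in STAT3-/-PD-1-/- CD4+ libraries, and 376 and 307, 424 and 454, and 93.6 and 65.5 in the CD8+ libraries. These values go with the labelled genotypes. Cd4 was at 1242 to 1887 CPM in the CD4+ libraries and at most 2.73 CPM in the CD8+ libraries, and Cd8a was at 589 to 1339 CPM in the CD8+ libraries and at most 5.64 CPM in the CD4+ libraries, where the highest value was that of STAT3-/-PD-1-/- replicate 2.

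Markers of other liver cells were low. The summed level of 8 T cell markers was 4490 to 6310 CPM, led by Thy1, whereas 10 hepatocyte markers together had 1.51 to 5.22 CPM, led by Trf. The 8 macrophage or Kupffer cell markers had 7.21 to 17.5 CPM in CD4+ and 17.8 to 37.2 CPM in CD8+ libraries, led by Cd68 in every library, and Adgre1 was at 0 in both STAT3-/-PD-1-/- CD8+ libraries. The 6 B cell markers had at most 14.7 CPM, nearly all from Cd79b in the CD8+ libraries, and Ms4a1 was at 0 in every library. The 6 neutrophil markers had at most 1.19 CPM, with S100a8 leading over the 12 libraries but at 0 in 3 of them. The 4 natural killer cell markers had 10.2 to 56.3 CPM, nearly all from Klrb1c, with Klra8 and Klra4 at 0 throughout. The 5 endothelial markers had 110 to 198 CPM, nearly all from Pecam1, which T cells also express.

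**Figure D1:**
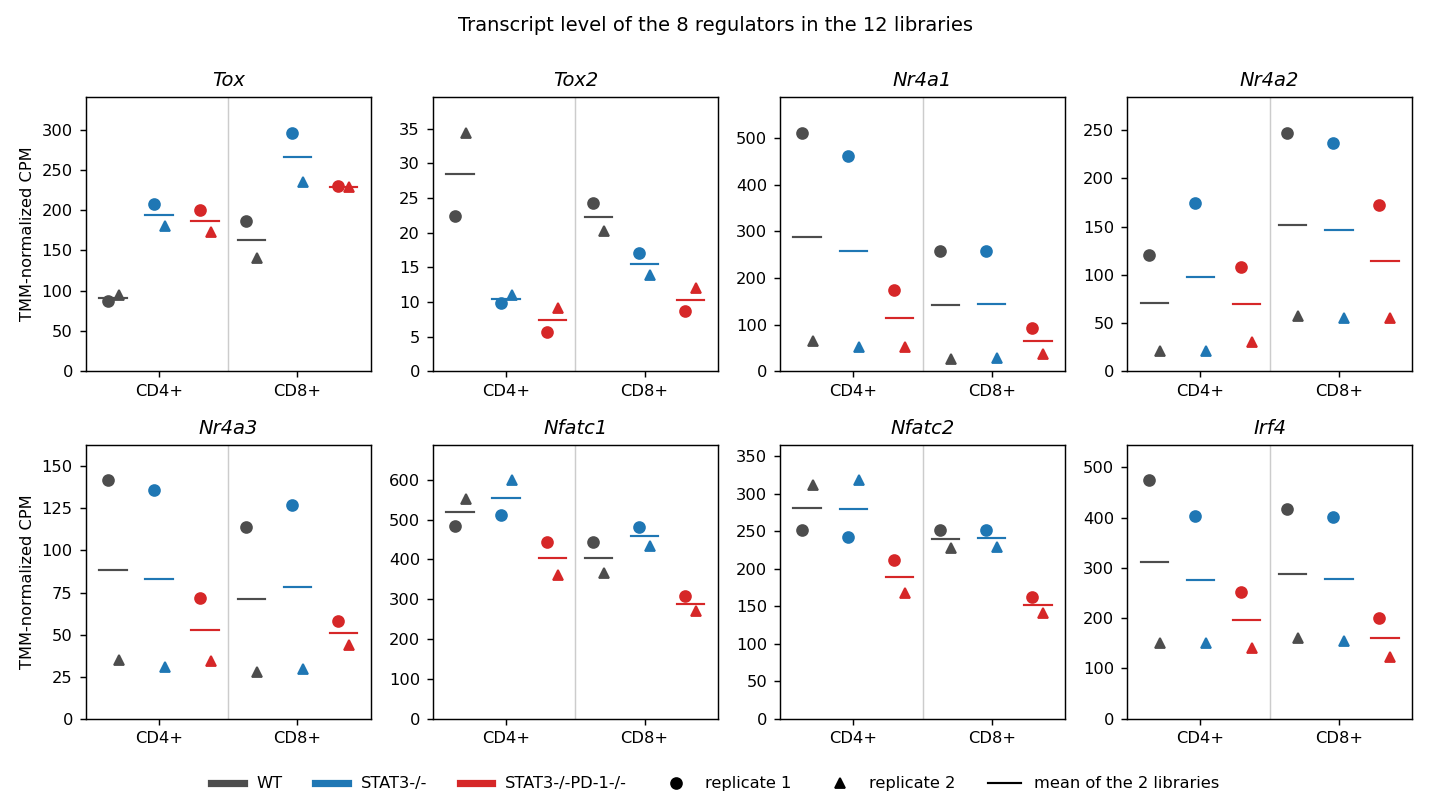
Level of each regulator in every library, as TMM-normalized CPM on the y axis, which starts at 0, for CD4+ and CD8+ T cells of the 3 genotypes (gray WT, blue STAT3-/-, red STAT3-/-PD-1-/-; circles replicate 1, triangles replicate 2, lines the mean of the 2 libraries). Tox is lowest in WT CD4+ T cells, and each circle of Nr4a1, Nr4a2, Nr4a3, and Irf4 lies above the triangle of its group.

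All 8 genes were expressed in every library, at levels that differed widely between them. Per kilobase of exon, the mean level over the 12 libraries was 67.8 CPM for Nr4a1, 66.0 for Tox, 58.9 for Nfatc1, 52.9 for Irf4, 32.4 for Nr4a2, 27.5 for Nfatc2, 10.6 for Nr4a3, and 3.47 for Tox2. The highest library was 19.8 times the lowest for Nr4a1 and 11.8 times for Nr4a2, but only 2.22 times for Nfatc1 and 2.25 times for Nfatc2. Tox varied 3.37-fold, Irf4 3.88-fold, Nr4a3 5.09-fold, and Tox2 6.02-fold. In the deposited table, which uses mm10, Tox spans 6687386 to 6990723 on the minus strand of chromosome 4, where Nr4a3 also lies (48045305 to 48086446, plus strand). Tox2 (163203127 to 163324172, plus strand), Nr4a2 (57107226 to 57124003, minus strand), and Nfatc2 (168476410 to 168601657, minus strand) lie on chromosome 2. Nr4a1 lies on chromosome 15 (101266846 to 101274794, plus strand) and Irf4 on chromosome 13 (30749233 to 30766981, plus strand).

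Nfatc1 and Nfatc2 encode the calcium-regulated factors at the head of this group. Nfatc1 in CD8+ T cells had 443 and 366 CPM in WT, 483 and 434 in STAT3-/-, and 308 and 270 in STAT3-/-PD-1-/- libraries. Nfatc2 had 251 and 227, 252 and 229, and 163 and 141 CPM in the same order. For both genes the 2 STAT3-/-PD-1-/- libraries lay below all 4 others, while the WT and STAT3-/- values of Nfatc2 were nearly equal. Relative to WT, log2 expression of Nfatc2 fell by 0.64 in CD8+ T cells of the STAT3-/-PD-1-/- genotype (standard error 0.12, adjusted p = 0.0159). Here and below, adjusted p-values come from the quasi-likelihood F test of edgeR unless another tool is named. In the same comparison Nfatc1 fell by 0.48 (standard error 0.13, adjusted p = 0.0476). Relative to STAT3-/-, Nfatc2 fell by 0.65 (standard error 0.12, adjusted p = 0.0171) and Nfatc1 by 0.65 (standard error 0.13, adjusted p = 0.0201). The differences between libraries of the same number were -0.53 and -0.44 for Nfatc1 and -0.63 and -0.68 for Nfatc2 against WT. In bulk samples, fewer cells that express a gene and less RNA per cell cannot be told apart.

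With Tox2, given further on, 3 of the 8 genes differed between STAT3-/-PD-1-/- and WT CD8+ T cells, all lower, where 17.2% of all 12002 genes tested differed and 8.21% were lower. Against STAT3-/-, 2 of the 8 differed, both lower (16.8% of all genes differed and 8.05% were lower). The median log2 fold change of the 8 genes was -0.56 and -0.63 in these comparisons, beside -0.00062 and -0.0028 for all genes. For 4 of the 8 genes the groups were without overlap in each comparison, as for 59.7% and 63.1% of all genes. The call of Nfatc1 against WT was marginal. It was lost when any 1 of the 6 CD8+ libraries was left out, with adjusted p from 0.058 without STAT3-/- replicate 1 to 0.222 without STAT3-/-PD-1-/- replicate 2, and also with RLE factors (0.0512), limma on RPKM (0.074), or the 4 compared libraries alone (0.0568). The call of Nfatc2 against WT was lost without WT replicate 1 (adjusted p = 0.0591) and without STAT3-/-PD-1-/- replicate 2 (adjusted p = 0.0986). Against STAT3-/-, both genes lost their call without STAT3-/- replicate 1 (adjusted p = 0.0682 for Nfatc1 and 0.0633 for Nfatc2), without STAT3-/- replicate 2 (adjusted p = 0.0592 for both), and without STAT3-/-PD-1-/- replicate 2 (adjusted p = 0.143 and 0.116), and Nfatc1 also without STAT3-/-PD-1-/- replicate 1 (adjusted p = 0.0541). Several T cell markers moved with them. Against WT, 4 of 8 T cell markers were lower in STAT3-/-PD-1-/- CD8+ T cells (Cd2, Cd247, Cd3d, and Lck, with log2 fold changes from -0.46 for Lck to -0.69 for Cd2), as were Cd8a (-1.09) and Cd8b1 (-0.87). Of the leading genes of other cell types, Cd79b (-1.18), Klrb1c (-1.62), and Cd68 (-0.71) were lower as well, whereas the hepatocyte gene Trf was at 1.26 CPM in WT and 2.21 CPM in STAT3-/-PD-1-/- (0.81, adjusted p = 0.25) and rose against STAT3-/- (1.73, adjusted p = 0.0486). The median over the 7 macrophage markers tested was -2.41 against WT and -1.81 against STAT3-/-, with 1 of the 7 called in each. The part of these markers in the lower NFAT levels was not tested.

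Nfatc1 in CD4+ T cells had 484 and 553 CPM in WT, 513 and 599 in STAT3-/-, and 445 and 362 in STAT3-/-PD-1-/- libraries, and Nfatc2 had 251 and 312, 242 and 318, and 211 and 168 CPM. Again the STAT3-/-PD-1-/- libraries were the lowest of each gene, but the differences from WT (-0.34 with standard error 0.17 for Nfatc1 and -0.55 with standard error 0.21 for Nfatc2, on the log2 scale) did not pass the test (adjusted p = 0.226 and 0.125). STAT3-/- and WT libraries overlapped in both genes, and the log2 fold changes were 0.10 (standard error 0.17) and -0.0046 (standard error 0.20). Fitted over the 12 libraries, the interaction of the STAT3-/-PD-1-/- effect with subset did not pass, with -0.12 for Nfatc1 (standard error 0.22) and -0.082 for Nfatc2 (standard error 0.25), both at adjusted p = 1 (0.00811% of 12334 genes passed).

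Other genes of the calcium and calcineurin route were compared as a list of 28, of which 26 were tested. Between STAT3-/-PD-1-/- and WT CD8+ T cells 7 of the 26 differed, 6 lower and 1 higher, with a median log2 fold change of -0.27, beside 17.2% of all genes. Itpr2, an inositol trisphosphate receptor that releases calcium from the endoplasmic reticulum, fell by 0.97 (standard error 0.11, adjusted p = 0.00438), and Orai2, a subunit of the store-operated calcium channel, fell by 0.80 (standard error 0.16, adjusted p = 0.0169). Itpr1, another receptor of the same family, rose by 0.86 (standard error 0.15, adjusted p = 0.0127). The remaining lower genes were Itpr3, Plcg1, the calcineurin catalytic subunit gene Ppp3cc, and the calcium sensor gene Stim2. Among CD4+ T cells 4 of 26 were lower and none higher between these genotypes, a share near that of all genes (12.9%), namely Itpr2 (-0.78), Orai2 (-0.73), Nfatc3 (-0.64), and Stim1 (-0.54). Between STAT3-/-PD-1-/- and STAT3-/- the counts were 6 of 26 in CD8+ T cells, 5 of them lower, and 2 of 26 in CD4+ T cells, both lower, beside 16.8% and 11.1% of all genes. Against WT, no gene of the list differed in STAT3-/- T cells of either subset by edgeR.

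The list of 11 NFAT-dependent activation genes had a median log2 fold change against WT of -0.74 in STAT3-/-PD-1-/- and of -0.75 in STAT3-/- CD4+ T cells, and of -0.075 between these 2 genotypes. Of the 11, none was called for STAT3-/- by edgeR, and for STAT3-/-PD-1-/- 2 were lower than in WT (12.9% of all genes differed), Cd40lg, which encodes CD40 ligand (-1.01, standard error 0.20, adjusted p = 0.02), and the cytokine gene Il2 (-1.73, adjusted p = 0.0452). Among CD8+ T cells the median against WT was -0.17 for STAT3-/-PD-1-/- and -0.48 for STAT3-/-, and 1 of 8 tested was lower in STAT3-/-PD-1-/- (17.2% of all genes differed), Egr3, a TCR-induced regulator (-0.90, standard error 0.23, adjusted p = 0.0373). Against STAT3-/-, 2 of 8 were higher in CD8+ T cells (16.8% of all genes differed), the cytokine genes Csf2 (2.02, adjusted p = 0.0411) and Il21 (1.70, adjusted p = 0.0232). Il2, Csf2, and Il21 were named after their values were seen.

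Nr4a1 encodes a nuclear receptor used as a reporter of TCR signals. Its CD4+ libraries numbered 1 and 2 had 511 and 64.1 CPM in WT, 462 and 52.6 in STAT3-/-, and 175 and 51.7 in STAT3-/-PD-1-/-. The CD8+ values were 258 and 25.8, 258 and 28.5, and 92.7 and 35.9 CPM. The library numbered 1 was the higher in all 6 groups, by 2.58-fold to 10-fold, and the ranges of the 3 genotypes overlapped in both subsets.

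Nr4a2, of the same family, had 121 and 21 CPM in WT, 174 and 21.3 in STAT3-/-, and 108 and 30.5 in STAT3-/-PD-1-/- CD4+ libraries. The CD8+ values were 247 and 56.8, 236 and 55.4, and 173 and 55.4 CPM. Here too each library numbered 1 was the higher, by 3.12-fold to 8.15-fold. Nr4a3 had 142 and 34.9, 136 and 30.5, and 71.5 and 34.5 CPM in CD4+ T cells in the same order of genotypes. The CD8+ libraries had 114 and 27.8, 127 and 29.6, and 58.1 and 44.0 CPM. Its ratio of library 1 to library 2 was 1.32 to 4.47.

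Irf4, the interferon regulatory factor that partners BATF and AP-1 in activated T cells, had 474 and 150 CPM in WT, 403 and 150 in STAT3-/-, and 252 and 140 in STAT3-/-PD-1-/- CD4+ libraries. Its CD8+ values were 416 and 160, 402 and 154, and 199 and 122 CPM. It followed the NR4A genes, with a ratio of library 1 to library 2 of 1.63 to 3.16 in the 6 groups. Among the libraries numbered 1, those of STAT3-/-PD-1-/- T cells were the lowest of their subset for Nr4a1, Nr4a2, Nr4a3, and Irf4, whereas among those numbered 2 the order turned for some of these genes. There STAT3-/-PD-1-/- lay above WT for Nr4a1 (log2 difference 0.48) and Nr4a3 (0.66) among CD8+ cells and for Nr4a2 (0.54) among CD4+ cells.

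**Figure D2:**
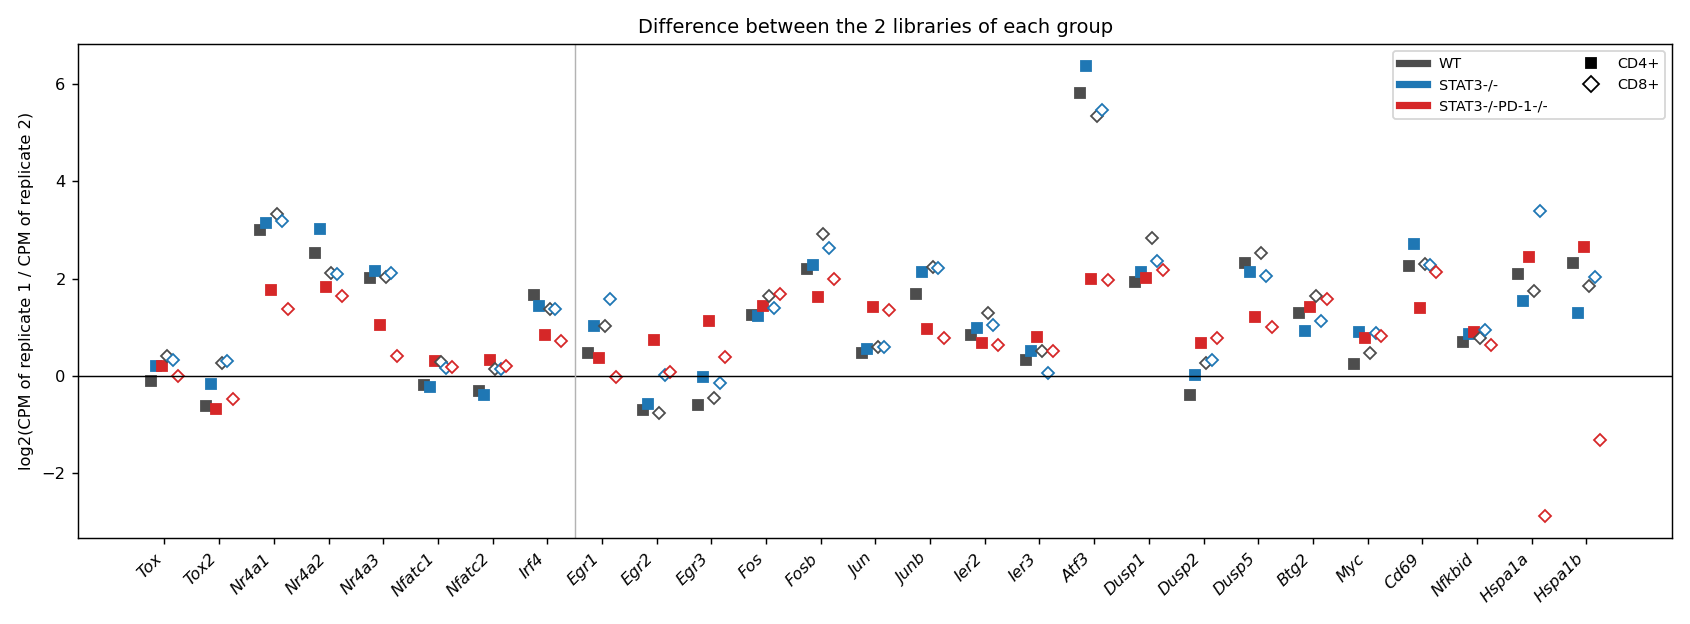
Log2 ratio of replicate 1 to replicate 2 in TMM-normalized CPM on the y axis, for the 8 regulators (left of the line) and the 19 immediate early genes (right) on the x axis, in each of the 6 groups (filled squares CD4+, open diamonds CD8+, colors the genotypes). Points for Nr4a1, Nr4a2, Nr4a3, and Irf4 are all above 0, as are those of 13 of the 19 immediate early genes, while points for Tox, Tox2, Nfatc1, and Nfatc2 lie on both sides of 0.

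The difference between the numbered libraries was fitted after these values were seen, as the term for the replicate number in a model with genotype. In CD4+ T cells the library numbered 2 was lower by 2.62 (standard error 0.25) for Nr4a1, 2.43 (0.21) for Nr4a2, 1.73 (0.20) for Nr4a3, and 1.29 (0.15) for Irf4 on the log2 scale, with adjusted p-values of 0.00583, 0.00375, 0.00975, and 0.00975. These 4 of the 8 genes passed, all lower, where 2.39% of all 11959 genes passed and 1.53% were lower. For CD8+ T cells Nr4a2 (-1.94, standard error 0.12, adjusted p = 0.00472) and Irf4 (-1.14, standard error 0.15, adjusted p = 0.0478) passed, where 0.35% of all genes passed and 0.258% were lower. Nr4a1 (-2.62, standard error 0.38, adjusted p = 0.0645) and Nr4a3 (-1.51, standard error 0.33, adjusted p = 0.136) did not. Nr4a1 passed with DESeq2 (-2.64, adjusted p = 0.000721), and with no filter on low counts edgeR called both (adjusted p = 0.00562 and 0.0385). Leaving out 1 library did not remove any of these calls. More of the 8 genes were called in some of these fits, for which no share of all genes called is given here. Each left-out library also makes its partner uninformative for this term.

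The 2 numbers coincide with 2 runs of the facility numbers in the sample titles, 1 run for each replicate number, and the study's methods mention 2 batches for TCR sequencing of such T cells. No source used here says which library belonged to which batch. Of all 12334 genes, 9.68% were lower in library 2 in all 6 groups and 10% were higher in all 6, so that a shared direction was common. The list of 19 immediate early genes, which respond both to TCR signals and to the handling of cells, went with Nr4a1 in part. In the fit of the numbered libraries 11 of the 19 passed the test as lower in library 2 among CD4+ T cells (2.39% of all genes passed and 1.53% were lower) and 6 of 19 among CD8+ T cells (0.35% and 0.258%), none was called higher, and the medians were -1.18 and -0.97 on the log2 scale. Library 2 was the lower in all 6 groups for 13 of the 19, but only in 2 groups for Egr3 and 3 for Egr2. Between STAT3-/-PD-1-/- and WT, 1 of 19 was lower in CD4+ and 2 of 19 in CD8+ T cells, with medians of -1.10 and -0.95. Both counts come from fits without the replicate number and lie under the shares of all genes called in them (12.9% and 17.2%). Counts with the replicate number fitted are not given here. Fosb, an AP-1 subunit, had 472 and 103 CPM in WT, 452 and 92.6 in STAT3-/-, and 107 and 34.9 in STAT3-/-PD-1-/- CD4+ libraries. Cd69, an early activation marker, had 1517 and 317, 1423 and 216, and 504 and 192 CPM, and Dusp1, a MAP kinase phosphatase gene induced by stress and by activation, had 629 and 164, 619 and 140, and 293 and 72.5 CPM. Each of these 3 genes fell from library 1 to library 2 in all 6 groups, and each was lowest in STAT3-/-PD-1-/- T cells within both numbers. Not every gene of the list was lowest there. Among the libraries numbered 1, Myc was highest in STAT3-/-PD-1-/- T cells, at 97.8 CPM in CD4+ and 98.3 CPM in CD8+ T cells. Fosb, Cd69, Dusp1, and Myc were named after their values were seen.

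Markers of other cells also differed between the numbers, at a low level. In CD4+ T cells Clec4f, a Kupffer cell marker, had 0.0909 and 1.65 CPM in WT, 0.188 and 1.11 in STAT3-/-, and 0.0433 and 0.238 in STAT3-/-PD-1-/- libraries. The median log2 difference of library 2 from library 1 over the 7 macrophage markers tested was 2.62 for CD4+ and 2.71 for CD8+ T cells, upward, while the summed level of the list was at most 37.2 CPM. Clec4f and Lyz2 passed the test in CD4+ T cells. The part of cell handling or of other cells in the NR4A and Irf4 differences was not tested.

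Without a term for the replicate number, no genotype comparison passed the test for an NR4A gene or Irf4. In STAT3-/- against WT CD4+ T cells the log2 fold changes were -0.16 for Nr4a1 (standard error 1.12), 0.47 for Nr4a2 (standard error 1.05), -0.080 for Nr4a3 (standard error 0.78), and -0.17 for Irf4 (standard error 0.60). Their CD8+ values were 0.0087, -0.061, 0.14, and -0.055, with standard errors of 1.16, 0.86, 0.75, and 0.54. In STAT3-/-PD-1-/- against WT CD4+ T cells they were -1.32 (standard error 1.14), -0.0067 (1.05), -0.71 (0.79), and -0.64 (0.60). The corresponding CD8+ values were -1.13 (1.18), -0.40 (0.86), -0.46 (0.75), and -0.83 (0.54). Some of these signs turned with other settings. For STAT3-/-PD-1-/- against WT, Nr4a1 and Irf4 turned upward in CD4+ T cells without WT replicate 1, as did Irf4 in CD8+ T cells. Over all settings of this comparison, the highest CD8+ values were 1.31 for Nr4a1, 1.00 for Nr4a2, and 0.873 for Nr4a3. In CD4+ T cells they were 1.73 for Nr4a2 and 0.608 for Nr4a3. With the replicate block, Nr4a2 turned upward in CD4+ T cells (0.23). Within the number 1 libraries, Irf4 was lower in STAT3-/-PD-1-/- than in WT by 0.91 in CD4+ and 1.06 in CD8+ T cells on the log2 scale, and within the number 2 libraries by 0.095 and 0.39. With the replicate number as a block, Irf4 passed in STAT3-/-PD-1-/- CD8+ T cells against WT (-0.71, standard error 0.18, adjusted p = 0.0307) and against STAT3-/- (-0.65, standard error 0.18, adjusted p = 0.0399), where 24.7% and 24.4% of all genes passed. No NR4A gene passed with the block.

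Partners of IRF4 were compared as a list of 13. In STAT3-/-PD-1-/- against WT CD4+ T cells 2 of 11 tested differed (12.9% of all genes did). Irf8, the closest relative of Irf4, rose by 1.10 (standard error 0.19, adjusted p = 0.0117), and Bcl6, a repressor needed for follicular helper T cells, fell by 2.20 (standard error 0.33, adjusted p = 0.00839). Among CD8+ T cells 2 of 12 were lower (17.2% of all genes differed), Ikzf3, which encodes Aiolos (-0.64, standard error 0.14, adjusted p = 0.0253), and Bcl6 (-2.16, adjusted p = 0.0144), where Bcl6 was named after its value was seen because it lies under the abundance set for named genes. Against STAT3-/-, 3 of 11 were called in CD4+ T cells (11.1% of all genes differed), Irf8 upward (0.87) and Bcl6 (-1.33) and Ikzf3 (-1.11) downward. In CD8+ T cells 2 of 12 were called (16.8% of all genes differed), Ikzf3 downward (-0.93) and Batf3 upward (3.79). Batf3 was near the floor there, at 0 to 0.123 CPM in STAT3-/- and 0.751 to 1.10 CPM in STAT3-/-PD-1-/- libraries. It was named after its value was seen. No partner differed in STAT3-/- against WT T cells by edgeR. Of 15 relatives of the 8 genes, 13 were tested, and 2 were called in CD4+ and 3 in CD8+ T cells of STAT3-/-PD-1-/- against WT (12.9% and 17.2% of all genes). Of these, Irf8 rose and Nfatc3 fell (-0.64, standard error 0.13, adjusted p = 0.0213) in CD4+ T cells, whereas in CD8+ T cells Irf5 rose (0.60) and Irf7 (-0.77) and Irf9 (-0.53), which act in the interferon response, fell. Against STAT3-/-, 4 of the 13 relatives differed in CD4+ T cells, 3 lower and 1 higher (11.1% of all genes differed). In CD8+ T cells 4 of the 13 differed, all lower (16.8% of all genes differed).

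Tox encodes the factor most closely tied to exhausted T cells. In CD4+ T cells it had 87.7 and 94.7 CPM in WT, 207 and 180 in STAT3-/-, and 200 and 173 in STAT3-/-PD-1-/- libraries. Its CD8+ libraries had 186 and 140 CPM in WT, 296 and 235 in STAT3-/-, and 229 and 229 in STAT3-/-PD-1-/- libraries. Within each subset every STAT3-deficient library lay above both WT libraries. Among CD4+ T cells the log2 rise over WT was 1.09 for STAT3-/- (standard error 0.15, adjusted p = 0.0413) and 1.05 for STAT3-/-PD-1-/- (standard error 0.15, adjusted p = 0.00806). Libraries of the same number differed by 1.24 and 0.93 in the first comparison and by 1.19 and 0.87 in the second. For CD8+ T cells the differences from WT were 0.70 (standard error 0.17, adjusted p = 0.272) and 0.50 (standard error 0.17, adjusted p = 0.0801), which did not pass by edgeR. The STAT3-/-PD-1-/- difference in CD8+ T cells passed with DESeq2 (adjusted p = 0.0472) and with the replicate block (0.52, adjusted p = 0.0274). The difference of STAT3-/-PD-1-/- from STAT3-/- was -0.035 for CD4+ (standard error 0.15, adjusted p = 0.899) and -0.20 for CD8+ T cells (standard error 0.17, adjusted p = 0.434) and did not pass, although the 2 CD8+ groups did not overlap. These comparisons share their WT libraries.

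Tox was the 1 gene of the 8 called in CD4+ T cells of STAT3-/- against WT, in a comparison where 0.334% of 11959 genes differed. Groups did not overlap for 2 of the 8 genes (38.2% of all genes). For CD8+ T cells edgeR called none of the 8 between these genotypes (2 at an unadjusted p under 0.05, as for 11% of all genes, and 1, Tox, by DESeq2), and 0.0583% of 12002 genes were called. Here, too, 2 of the 8 did not overlap (43.6% of all genes). The CD4+ call in STAT3-/- was lost without WT replicate 1 (adjusted p = 0.187), WT replicate 2 (0.178), STAT3-/- replicate 1 (0.0795), STAT3-/-PD-1-/- replicate 1 (0.156), or STAT3-/-PD-1-/- replicate 2 (0.153), while its log2 fold change stayed between 1.00 and 1.18 over all settings. The call in STAT3-/-PD-1-/- was lost without STAT3-/-PD-1-/- replicate 1 (adjusted p = 0.0694) or replicate 2 (0.0667).

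Tox2, a relative of Tox that is abundant in follicular helper T cells, went the other way at a much lower level. It had 22.4 and 34.4 CPM in WT, 9.80 and 11.1 in STAT3-/-, and 5.71 and 9.13 in STAT3-/-PD-1-/- CD4+ libraries. CD8+ libraries had 24.3 and 20.3, 17.0 and 13.9, and 8.66 and 12 CPM. In both subsets the 3 genotypes did not overlap, in the order WT, STAT3-/-, and STAT3-/-PD-1-/-. Against WT, log2 expression of Tox2 in STAT3-/-PD-1-/- donors fell by 1.91 among CD4+ cells (standard error 0.31, adjusted p = 0.0103) and by 1.10 among CD8+ cells (standard error 0.22, adjusted p = 0.0182). Libraries of the same number differed by -1.97 and -1.91 in CD4+ and by -1.49 and -0.76 in CD8+ T cells. The differences between STAT3-/- and WT were -1.44 (standard error 0.30, adjusted p = 0.146) and -0.53 (standard error 0.21, adjusted p = 0.429), and those between STAT3-/-PD-1-/- and STAT3-/- were -0.47 (standard error 0.31, adjusted p = 0.348) and -0.57 (standard error 0.22, adjusted p = 0.116), none of which passed by edgeR with the filter on low counts and no block. The difference between STAT3-/- and WT CD4+ cells passed by edgeR with no filter (-1.44, adjusted p = 0.0234), with DESeq2 (-1.45, adjusted p = 0.000981), and with the replicate block (-1.41, standard error 0.185, adjusted p = 0.0133).

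With Tox and Tox2, 2 of the 8 genes were called in CD4+ T cells of STAT3-/-PD-1-/- against WT, where 12.9% of all genes did, and the median log2 fold change of the 8 was -0.60 beside -0.011 for all genes. Groups did not overlap for 4 of the 8 (59.2% of all genes). In this comparison 2 of 3 CD4 T cell markers were lower, Cd4 (-0.52, adjusted p = 0.0375) and Cd40lg, with a median over the 3 of -0.71, as was 1 of 8 T cell markers, Cd2 (-0.53). The 7 macrophage markers tested had a median of -2.27, and none of them was called. The part of these markers in the Tox and Tox2 differences was not tested. Against STAT3-/-, none of the 8 differed in CD4+ T cells by edgeR or by DESeq2 (2 at an unadjusted p under 0.05 by edgeR, as for 29.4% of all genes), where 11.1% of all genes did. Here 3 of the 8 did not overlap, again beside 59.2% of all genes. The CD4+ call of Tox2 was lost without STAT3-/-PD-1-/- replicate 1 (adjusted p = 0.0828) or replicate 2 (0.0623), and the CD8+ call without WT replicate 1 (0.0595), STAT3-/-PD-1-/- replicate 1 (0.0771), or STAT3-/-PD-1-/- replicate 2 (0.0669). For Tox the STAT3-/-PD-1-/- effect was smaller in CD8+ than in CD4+ T cells by 0.54 (standard error 0.24), and for Tox2 the fall was smaller by 0.83 (standard error 0.39), and neither interaction passed (adjusted p = 1). In the 3 interactions none of the 8 genes passed by edgeR or DESeq2, and at an unadjusted p under 0.05 edgeR gave Tox2 for STAT3-/- against WT (1.85% of all genes), Tox for STAT3-/-PD-1-/- against WT (4.43%), and none for STAT3-/-PD-1-/- against STAT3-/- (3.59%). The adjusted calls over all genes in these interactions were 0%, 0.00811%, and 0%.

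**Figure D3:**
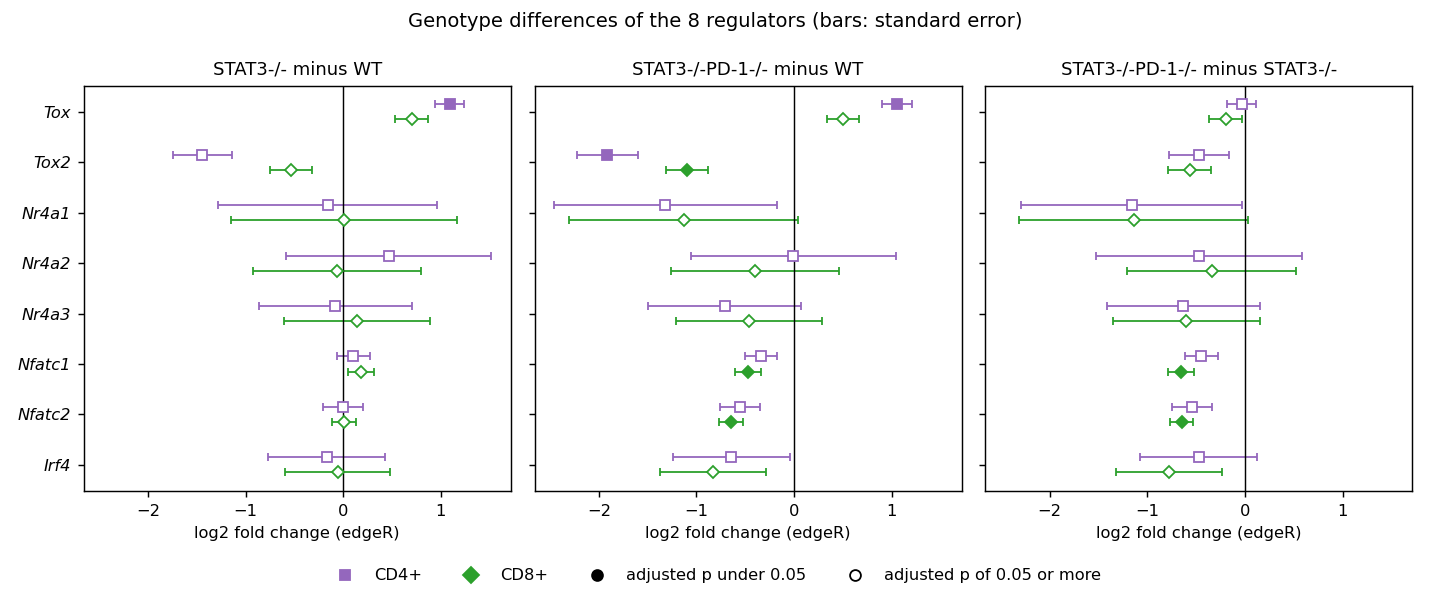
Log2 fold change of each regulator from edgeR on the x axis, with its standard error as a bar, in CD4+ (squares) and CD8+ (diamonds) T cells for the 3 genotype comparisons. Filled symbols mark an adjusted p under 0.05. Bars of Nr4a1, Nr4a2, Nr4a3, and Irf4 are the widest, and the filled symbols belong to Tox, Tox2, Nfatc1, and Nfatc2.

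Genes that mark exhausted or progenitor T cells were compared beside Tox. Of 12 surface genes linked to exhaustion, none differed between STAT3-/- and WT in either subset by edgeR, with medians of -0.23 (CD4+) and -0.20 (CD8+). In STAT3-/-PD-1-/- against WT CD4+ T cells 6 of 12 differed, 4 lower and 2 higher, beside 12.9% of all genes. The list holds the deleted Pdcd1 itself (-2.55), and the others called were Cd38, Icos, and Tigit, lower, and Cd244a and Tnfrsf9, higher. Cd38, an ectoenzyme, fell by 1.31 (standard error 0.17, adjusted p = 0.00566), and Tnfrsf9, which encodes the costimulator 4-1BB, rose by 0.98 (standard error 0.20, adjusted p = 0.021). Among CD8+ T cells 4 of 12 were lower and none higher (17.2% of all genes differed), namely Pdcd1 (-2.09), Icos, Lag3, and Cd38, with Cd38 at -1.71 (standard error 0.19, adjusted p = 0.00417). Of 14 progenitor and effector transcription factors, 5 differed in STAT3-/-PD-1-/- against WT CD4+ T cells, 4 lower and 1 higher (12.9% of all genes differed). Tcf7, which encodes the progenitor factor TCF-1, fell by 2.89 (standard error 0.24, adjusted p = 0.00208), and Id2, an inhibitor of E proteins, fell by 1.24 (standard error 0.15, adjusted p = 0.0053). For CD8+ T cells 2 of the 14 were lower, a share near that of all genes, Id2 (-1.38, standard error 0.25, adjusted p = 0.0135) and Id3 (-1.96, adjusted p = 0.0299), the latter named after its value was seen. Against STAT3-/-, Tcf7 (-2.10) and Bach2 (-1.56), a repressor of effector genes, were among 5 of 14 that differed in CD4+ T cells (11.1% of all genes did). In CD8+ T cells 1 of the 14 differed, lower (16.8% of all genes did). Of the 12 surface genes, 4 differed from STAT3-/- in CD4+ T cells, 2 lower and 2 higher (11.1% of all genes differed). In CD8+ T cells 2 of the 12 did, both lower, a share near that of all genes (16.8%). The deleted Pdcd1 was among the lower genes in each subset.

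The subsets were compared within each genotype, with CD4+ and CD8+ libraries of the same genotype and number treated as cells from the same livers. Nr4a1 was lower in CD8+ than in CD4+ T cells in all 6 pairs of the same number, by 0.53 to 1.31 on the log2 scale, although both libraries of a pair rose and fell together. Nr4a2 was higher in CD8+ T cells in all 6 pairs, by 0.44 to 1.43. Tox was higher in CD8+ T cells in all 6 pairs (0.20 to 1.09), and Nfatc1 was lower in all 6 (-0.086 to -0.60). The other genes changed sign between pairs.

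Without the pairs, 1 of the 8 genes differed in WT cells, where Tox was higher in CD8+ T cells by 0.84 (standard error 0.17, adjusted p = 0.0103) and 10.5% of all genes differed. That call was lost without CD4+ WT replicate 1 (adjusted p = 0.0621) or CD8+ WT replicate 1 (0.0831). In STAT3-/- and STAT3-/-PD-1-/- T cells none differed by edgeR or DESeq2 (1 each at an unadjusted p under 0.05 by edgeR, as for 22% and 14.7% of all genes), where 9.62% and 4.14% of all genes did. With the pool as a block, 3 of 8 genes differed in each genotype, where 24.3%, 24.9%, and 14.4% of all genes did. Nr4a1 was then lower in CD8+ T cells by 1.14 (standard error 0.12, adjusted p = 0.000292) in WT, 0.86 (0.12, adjusted p = 0.00127) in STAT3-/-, and 0.73 (0.12, adjusted p = 0.00467) in STAT3-/-PD-1-/- cells. Nr4a2 was higher by 1.22 (standard error 0.20, adjusted p = 0.00284), 0.88 (0.20, adjusted p = 0.0134), and 0.76 (0.19, adjusted p = 0.0346). Tox was higher by 0.83 (standard error 0.13, adjusted p = 0.00204) and 0.45 (0.12, adjusted p = 0.0293) in WT and STAT3-/- cells, and by 0.30 (0.12, adjusted p = 0.148) in STAT3-/-PD-1-/- cells, where it did not pass. Nfatc1 passed in STAT3-/-PD-1-/- cells only (-0.48, standard error 0.13, adjusted p = 0.0426). Whether these differences between subsets varied with genotype did not pass for any of the 8 genes with the block (lowest adjusted p = 0.279, for Tox, where 0%, 0.681%, and 0.178% of all genes passed in the 3 interactions).

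**Figure D4:**
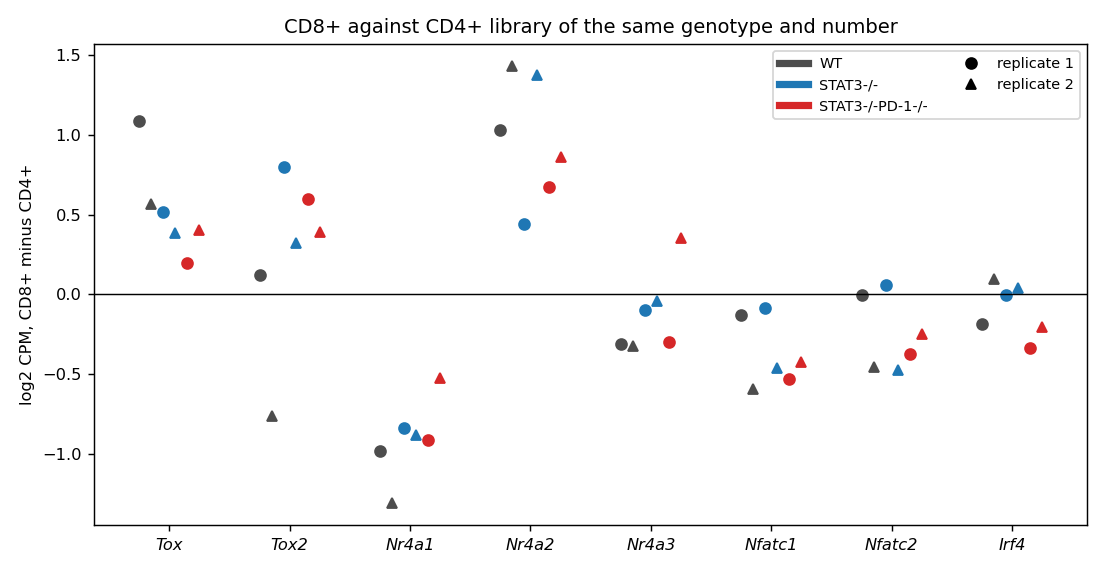
Log2 difference in TMM-normalized CPM between the CD8+ and the CD4+ library of the same genotype and number (y axis) for each regulator (x axis; colors genotypes, circles replicate 1, triangles replicate 2). All 6 points of Nr4a1 and Nfatc1 lie below 0, and all 6 of Nr4a2 and Tox lie above 0.

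Of the 11 NFAT-dependent activation genes, 8 were lower in CD8+ than in CD4+ WT T cells, 7 in STAT3-/-, and 6 in STAT3-/-PD-1-/- T cells, and none was higher, without the block (10.5%, 9.62%, and 4.14% of all genes differed). These included Cd40lg (-6.13 in WT), Il21 (-3.74), Egr2 (-1.29), and Egr3 (-1.68). Of 12 exhaustion-linked surface genes, 6 were called in WT and 6 in STAT3-/- cells without the block, in each 4 higher and 2 lower in CD8+ T cells. In STAT3-/-PD-1-/- cells 3 were called, 2 higher and 1 lower. Cd160 and Cd244a, which encode inhibitory receptors of cytotoxic cells, were higher in CD8+ T cells of each genotype, by 2.37 and 4.32 in WT cells. Of the 14 transcription factors, 6 were called in WT cells without the block (1 higher and 5 lower in CD8+ T cells). In STAT3-/- cells 4 were called (1 higher and 3 lower), and in STAT3-/-PD-1-/- cells 2 (1 higher and 1 lower). Eomes, a regulator of cytotoxic cells, was higher in CD8+ T cells by 3.24 in WT cells, by 3.03 with STAT3-/-, and by 1.36 with STAT3-/-PD-1-/-. These genes were named after their values were seen.

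The levels ordered the groups differently for each gene. Tox was highest in STAT3-/- CD8+ T cells (mean 265 CPM) and lowest in WT CD4+ T cells (91.2 CPM), and Tox2 was highest in WT CD4+ (28.4 CPM) and lowest in STAT3-/-PD-1-/- CD4+ T cells (7.42 CPM). In the order of Tox, STAT3-/- CD4+, STAT3-/-PD-1-/- CD4+, and WT CD8+ T cells overlapped their neighbours. Nfatc1 and Nfatc2 were lowest in STAT3-/-PD-1-/- CD8+ T cells, at 289 and 152 CPM, with no overlap with the next group. For Nr4a1, Nr4a2, Nr4a3, and Irf4 every group overlapped its neighbour.

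Over the 12 libraries, Nr4a1, Nr4a3, and Irf4 varied together in log2 CPM (Pearson r of 0.962 for Nr4a1 with Nr4a3, 0.944 for Nr4a1 with Irf4, and 0.951 for Nr4a3 with Irf4). Nr4a2 was less close to Nr4a1 (r = 0.711). Nfatc1 and Nfatc2 varied together (r = 0.942), and Tox and Tox2 in opposite directions (r = -0.572). The libraries share genotypes, pools, and numbers, so these values are descriptions. Among the 8698 genes that averaged 3 or more in log2 CPM, the 2 most like Nr4a1 were Csrnp1 (r = 0.985) and Bhlhe40 (0.978), those most like Nr4a3 were Tgif1 (0.991) and Csrnp1 (0.983), and those most like Irf4 were Atf4 and Dusp5 (0.982 each). The genes most like Nr4a2 were Spry2 (0.947) and Nfil3 (0.943). Runx1 (0.983) and Rcor1 (0.969) were most like Nfatc1, and Vav1 (0.969) and Bcl11b (0.967) most like Nfatc2. Brd7 (0.944) and H2ax (0.934) were most like Tox.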

How the data were processed

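Liver donor T cells were profiled by RNA-Seq in 12 libraries. The authors aligned reads with STAR (mm10) and summarised them per RefSeq gene in HTSeq-count. The authors deposited 2 tables, one of raw counts and one of RPKM values, both with exon lengths. A protocol for another cell type and another kit in the labels were not used. The deposited counts were tested in edgeR (version 4.0.16, under R version 4.3.3) after filterByExpr (at least 10 counts, total at least 15) and TMM scaling. The 6 libraries of a subset, or all 12 for CD8+ against CD4+ and for interactions, entered one quasi-likelihood fit, with Benjamini-Hochberg adjustment over all genes and a threshold of 0.05. Per-kilobase levels use the exon length. Alternatives were DESeq2 (version 1.42.0), RLE factors, no filter, limma (version 3.58.1) on log2(RPKM + 1), the 4 compared libraries alone, a replicate block, and each library left out. Steps were tested on simulated data. Figures used matplotlib (version 3.10.9).

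The replicates are pools of 3 recipients, so p-values measure the spread between pools, and the 2 libraries per group limit the precision. For CD8+ against CD4+, the study's methods take both subsets from the same livers, and deviations of same-numbered libraries correlated at 0.651 (WT), 0.644 (STAT3-/-), and 0.875 (STAT3-/-PD-1-/-), so the numbers were taken as pairs. The genes, the lists, and the tests were chosen with earlier results of these data known. From each list, at most 2 called genes per direction and genotype comparison were named, by size of change, if they averaged 3 or more in log2 CPM, together with the most abundant gene of each marker list. Other named list genes and the comparison of the numbered libraries were chosen after seeing the data. Whether counting used strand is not given in the sources used here, so reads from overlapping antisense genes may be included. The genes most like Tox2 are not reported here.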

Additional observations from a re-analysis of the deposited data

How the results depend on the processing

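Of the recomputed log2 fold changes of single genes that were at least as large as their standard error, 600 kept their direction and side of the threshold, 34 lost and 34 gained a call, and 5 turned sign. These 5 turned when 1 library was left out. Over all libraries left out in turn, the log2 fold change of STAT3-/-PD-1-/- against WT in CD4+ T cells ran from -1.25 to 0.396 for Irf4 (highest without WT replicate 1) and from -2.44 to 0.826 for Nr4a1 (highest without WT replicate 1). Against STAT3-/-, Nr4a1 in CD4+ T cells ran from -2.28 to 1.11 (highest without STAT3-/- replicate 1). Irf4 in STAT3-/-PD-1-/- CD8+ T cells ran from -1.38 to 0.00267 against WT (highest without WT replicate 1) and from -1.31 to 0.0565 against STAT3-/- (highest without STAT3-/- replicate 1). Of the smaller changes, 132 of 540 turned sign with a library left out and 4 of 275 otherwise, namely Nr4a2 in STAT3-/-PD-1-/- CD4+ T cells against WT (0.23 with the replicate block and 0.193 with limma on RPKM), Nr4a3 between subsets in STAT3-/-PD-1-/- T cells (0.019 with the pool block), and Nr4a2 in the interaction of subset with STAT3-/-PD-1-/- against STAT3-/- (-0.112 with the pool block). The number of the 8 genes called in CD4+ T cells of STAT3-/- against WT was 2 (Tox and Tox2) with DESeq2, with no filter, or with the replicate block, and 0 with limma on RPKM or with only the 4 libraries compared. Between STAT3-/- and WT CD8+ T cells it was 1 (Tox) with DESeq2. For the numbered libraries of CD8+ T cells it was 4 with no filter and 3 with DESeq2. With the replicate block, 2.53% of all genes were called between STAT3-/- and WT CD4+ T cells. The shares of all genes with DESeq2, no filter, limma, or the 4 compared libraries are not given here. The counts under those settings therefore stand without that comparison.

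Whether the replicate number pairs the genotypes is not stated. Deviations of same-numbered libraries correlated at 0.222 to 0.83 in CD4+ and 0.0419 to 0.84 in CD8+ T cells. With the replicate number as a block, 5 of the 8 genes differed between STAT3-/-PD-1-/- and WT CD8+ T cells (Irf4, Nfatc1, Nfatc2, Tox, and Tox2, beside 24.7% of all genes) and 3 against STAT3-/- (Irf4, Nfatc1, and Nfatc2), and over all genes the calls in the CD4+ comparisons were 303, 3104, and 3105 and in the CD8+ comparisons 9, 2965, and 2932. With the pool as a block the subsets differed in 3 genes in each genotype. With 1 library left out in turn, the numbers ranged from 0 to 1 (STAT3-/- against WT), 0 to 2 (STAT3-/-PD-1-/- against WT), and 0 to 0 (STAT3-/-PD-1-/- against STAT3-/-) in CD4+ T cells, and from 0 to 0, 0 to 2, and 0 to 2 in CD8+ T cells. They ranged from 0 to 1 for WT CD8+ against CD4+ T cells and were 0 in the other subset comparisons and interactions. For the numbered libraries they ranged from 4 to 7 in CD4+ and from 3 to 6 in CD8+ T cells. No share of all genes called is given here for the fits with 1 library left out. The counts from those fits therefore stand without that comparison and are not read as a result about the 8 genes. For the numbered libraries, the partner of the left-out library is also uninformative in each such fit. The cause of the shifts between settings was not tested.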
